A study of Mus musculus with 6 samples.

Results

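The mitochondrial carriers of the Slc25 family were followed in the livers of mice lacking Pdss2 in hepatocytes, through all 96 probe sets whose annotation gives exactly 1 gene symbol that starts with Slc25a or is Ucp1, Ucp2 or Ucp3. They read 46 of the 18193 genes that have a probe set of 1 symbol and are 96 of the 45037 probe sets that remained of 45101 after 64 control probe sets were set aside. Ucp2, Slc25a21, Slc25a43 and Slc25a52 have no probe set of that kind and were not analysed here. One further probe set carries the symbols of Slc25a37 and of a predicted gene, and was kept out. Its log2 value differed by 0.36 between the groups (adjusted p = 0.336, limma), and the groups overlapped.

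Liver RNA came from 3 B6.Alb/cre,Pdss2loxP/loxP mutants aged 176, 178 and 224 days and from 3 B6.Pdss2loxP/loxP controls aged 209, 213 and 140 days, all male, with 1 Affymetrix mouse array per animal. Both groups carried the floxed Pdss2 alleles and only the mutants carried cre, which the albumin promoter drives in hepatocytes, so that the other cells of the liver kept the gene. Cre without floxed alleles was not analysed here. The genotypes were caged apart, no other treatment was given, food was withdrawn 3 h before the animals were killed, and control 1 is named as the concurrent control of mutant 3. Pdss2 encodes a subunit of the enzyme that makes the side chain of coenzyme Q (CoQ), the lipid that carries electrons from complexes I and II to complex III of the respiratory chain. The comparison of the genotypes asks what the loss of CoQ synthesis in hepatocytes goes along with in the liver.

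Slc25 proteins are small carriers that nearly all sit in the inner mitochondrial membrane, which is otherwise closed to charged metabolites. Most of them exchange a molecule of the matrix for one of the cytosol, such as ATP for ADP, citrate for malate or ornithine for citrulline. In liver they join the urea cycle, fatty acid oxidation, gluconeogenesis, lipid synthesis and heme synthesis to the respiratory chain, and the uncoupling proteins of the same family let protons back into the matrix. The 46 genes were sorted by the substrate each is known for into 8 classes.

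Of the 96 carrier probe sets, 2 passed limma at an adjusted p under 0.05. One probe set of Slc25a16, linked to coenzyme A uptake, fell by 2.50 on the log2 scale in mutants, to 17.7% of the control level, and 1 of 3 probe sets of Slc25a51, the mitochondrial NAD carrier, was higher by 1.28, or 2.42-fold. That share of 2.08% stood beside 1.99% of all probe sets tested (897 of 45037), with 1.25% of all higher and 0.746% of all lower. All other carrier probe sets had adjusted p-values of 0.0509 or more. Among the brighter part of the array, where the mean of a probe set was above the median, 9 carrier probe sets were called, 13.8% of them against 13.5% of all. The shares lay further apart, at 6.52% of carriers against 2.76% of all, for the average over the probe sets of each gene (3 carriers called), and at 5.21% against 3.14% with the trend and robust settings of eBayes (5 called). They were 10.9% against 9.03% for the brightest probe set of each gene and 6.25% against 5.58% with age in the model. Carriers had the lower share after quantile normalization (1.04% against 1.53%) and after centring of each array on its median (0% against 0.666%). All values are log2 values as the authors deposited them, all differences are mutant minus control, and SD is over the 3 mice of a group.

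The promoters of Slc25a16, the gene with the largest carrier difference, and of Slc25a20, the acylcarnitine carrier, are shown because the data turn on the first and because the second alone of the carrier promoters held one of the motifs searched. Each is the 250 bases before the RefSeq start on GRCm38.p6, both on the plus strand, at chr10:62920383-62920632 and chr9:108661886-108662135. They have 60.8% and 56.8% G and C. Capitals mark the GABPA motif CCGGAAGT.
Slc25a16: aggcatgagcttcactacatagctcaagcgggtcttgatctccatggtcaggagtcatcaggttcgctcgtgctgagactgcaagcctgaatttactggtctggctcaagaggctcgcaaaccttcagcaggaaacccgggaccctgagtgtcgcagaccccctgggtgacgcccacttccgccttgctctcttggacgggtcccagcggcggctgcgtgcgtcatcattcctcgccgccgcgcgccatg
Slc25a20: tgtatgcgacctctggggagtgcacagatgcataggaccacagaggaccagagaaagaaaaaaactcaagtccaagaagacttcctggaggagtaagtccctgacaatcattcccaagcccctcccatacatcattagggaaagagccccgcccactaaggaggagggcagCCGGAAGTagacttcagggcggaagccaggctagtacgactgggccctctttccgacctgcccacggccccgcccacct
Short motifs of factors that act on nuclear genes of mitochondria were searched on both strands. Of the 46 genes, 36 have an entry, with 45 windows in all, and Slc25a51 is among the 10 without one. GABPA CCGGAAGT was in 1 of the 45 carrier windows (2.22%) and in 2.88% of all 32851 windows of that length. The core NRF1 motif CGCATGCG, the ERR motif TCAAGGTCA and the YY1 motif AAGATGGCG were in none of the carrier windows and in 1.55%, 0.387% and 0.606% of all windows. None of the motifs is contained in another, and a match is a description of the sequence, not a site.

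The arrays of the groups differed in ways that bear on every result. Array medians lay between 6.12 and 6.24 for mutants and between 5.92 and 6.12 for controls. Over all probe sets the median difference was 0.17, which quantile normalization took to 0.04 and centring of each array to 0.01. The same scalings took the median of the carriers from 0.04 to -0.09 and -0.12. Lower quartiles were 5.28 to 5.40 in mutants and 5.03 to 5.25 in controls, while upper quartiles were 7.08 to 7.13 and 7.06 to 7.10. Among bright probe sets alone the median difference was 0.09 for all and -0.03 for carriers, of which 65 of 96 are bright. Medians and shares over all probe sets, given beside classes and lists below, include the dim ones. The spiked bacterial transcripts BioB, BioC and BioD were higher in each mutant than in each control, by 1.81, 1.66 and 1.43. The Gapdh 3' minus 5' difference ran between 2.02 and 2.31 in controls and was 0.45, -1.06 and -1.78 in the mutants. The same difference for Actb overlapped, at 2.60, 3.95 and 4.50 in mutants and 3.82, 3.90 and 3.11 in controls. The part of these measures in the carrier differences was not tested. Nuclear genes of the respiratory chain and ATP synthase, taken by symbol prefix, had a median difference of -0.69 over 164 probe sets. Of these 78 (47.6%) lay below the controls in every mutant and 15 (9.15%) above, against 10.7% and 21.2% of all probe sets. Limma called 4 of them higher and 1 lower, or 3.05%, against 1.99% of all. The direction of that median is opposite to the one the paper describes for oxidative phosphorylation in these livers. The paper's direction came from gene set enrichment over a KEGG pathway, which is another measure and another gene list. Whether labels or arrays were exchanged was not tested. One of 3 Pdss2 probe sets was lower in each mutant (6.94, 6.88 and 7.05) than in each control (7.46, 7.47 and 7.56), at a difference of -0.54 and an adjusted p of 0.118 from limma, and the others differed by 0.40 and 0.35 with overlap. Whether any of them reads the deleted exon is not stated, so they do not check the labels.

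Defining hepatocyte markers were bright on every array, with a median difference of -0.35 over 19 probe sets and none called (1 at an unadjusted p under 0.05). In 5 of the 19 (26.3%) every mutant was below every control, against 10.7% of all probe sets, and in 2 above. The 5 below were all of Apoa1 apart from 1 of Hnf4a, with gaps of only 0.003 to 0.032. The 2 above were of Hnf4a and Ttr, with gaps of 0.60 and 0.03. Hnf4a had the smallest p among the hepatocyte markers, with differences of 0.86 (adjusted p = 0.0586, limma), -0.62, -0.23 and 0.05 on its 4 probe sets. Of markers of sinusoidal endothelium, Stab2 and Stab1 rose, by 1.82 and 1.39 (adjusted p = 0.0375 and 0.0499, limma). The median of the list was 0.20, beside 0.17 for all probe sets. The list held 14 positive differences and 5 negative ones, of Fcgr2b (down to -0.58) and of 1 probe set of Lyve1 (-0.17). In 7 of its 19 probe sets (36.8%) every mutant was above every control, against 21.2% of all probe sets. For Kupffer cells this held for 5 of 15 (33.3%), with a median difference of 0.63, and Clec4f differed by 1.17 (adjusted p = 0.0698, limma). For cholangiocytes it held for 4 of 8, with a median of 0.35, and Krt19 differed by 1.08 (adjusted p = 0.053, limma). For stellate cells it held for 4 of 18 (22.2%), with a median of 0.16, and Hgf differed by 0.87, 0.19 and 0.17 (adjusted p = 0.0644, 0.598 and 0.679, limma). In this list 5 of the 18 differences were negative, of Lrat (-0.53 and -0.105), Reln (-0.37) and Ngfr (-0.06 and -0.02). The lymphocyte and erythroid lists had medians of 0.31 and 0.13. All marker lists apart from that of endothelium had none called by limma (0 to 5 each at an unadjusted p under 0.05). The median value of the Kupffer list, set against the mean of each probe set, ran from 0.02 to 0.65 in mutants and from -0.58 to -0.11 in controls. In whole liver, fewer cells of a type and less RNA per cell cannot be told apart, and the part of cell makeup in the carrier values was not tested.

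The substrate classes differed in where their probe sets lay. The median difference was -1.01 for the acylcarnitine carrier, -0.13 for carriers with no class, -0.09 for carboxylates and the malate-aspartate shuttle and -0.03 for adenine nucleotides and phosphate. It was 0.04 for the uncoupling proteins, 0.11 for iron and glutathione, 0.28 for cofactors and nucleotides and 0.36 for amino acids. Over all probe sets it was 0.17, and 0.09 over the bright ones among them. Quantile normalization and centring turned the sign for the uncoupling proteins (-0.10 and -0.12), and centring that for iron and glutathione (-0.05). With the brightest probe set of each gene alone the medians for adenine nucleotides and phosphate and for cofactors and nucleotides turned to 0.30 and -0.09. Over the whole family 49 probe sets had a positive and 47 a negative difference, which became 43 and 53 after quantile normalization and 38 and 58 after centring. In 24 (25.0%) every mutant lay above every control and in 11 (11.5%) below, against 21.2% and 10.7% of all probe sets.

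**Figure D1:**
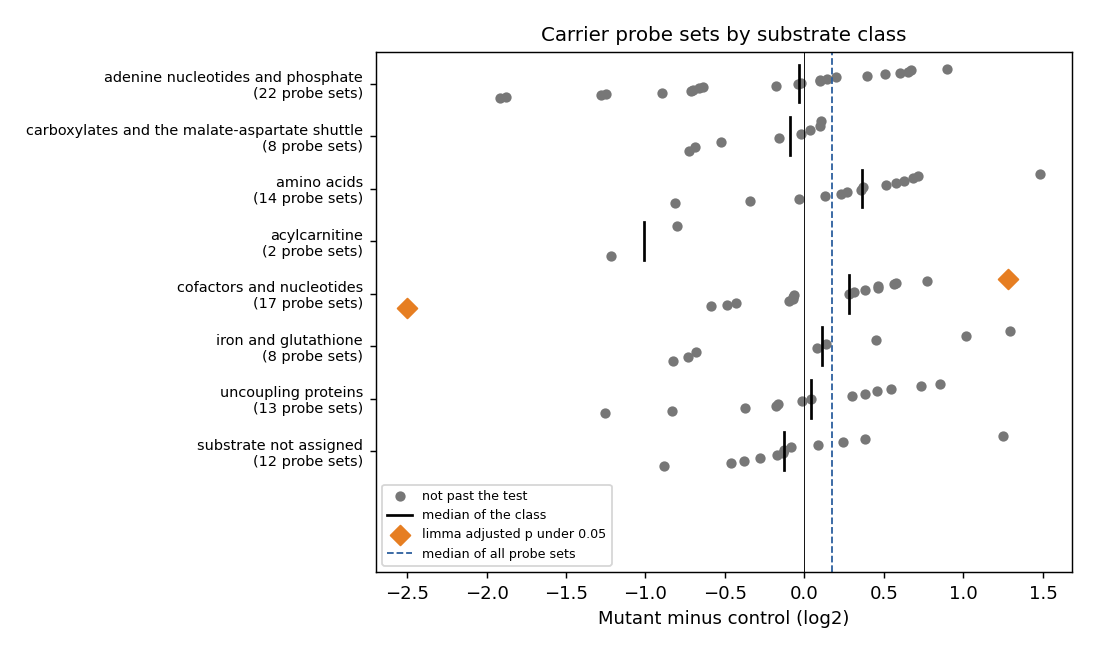
The horizontal axis gives the mutant minus control difference in log2 of each of the 96 carrier probe sets, in rows by substrate class, with black bars for class medians and a dashed line at the median of all probe sets (0.17). Orange diamonds are the 2 probe sets past the test, both among cofactors and nucleotides, at -2.50 and 1.28, and each class apart from the acylcarnitine carrier spans both signs.

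Probe sets of the same gene often disagreed. Of the 46 genes, 22 have 1 probe set and 24 have several. In 15 of the 24 the differences have both signs, in 4 all are positive (Slc25a17, Slc25a25, Slc25a29 and Slc25a36) and in 5 all are negative (Slc25a5, Slc25a20, Slc25a26, Slc25a46 and Slc25a53). At least 1 probe set had separate groups in 24 of the 46 genes, where 21.2% of all probe sets lay above and 10.7% below. No gene with several probe sets had all of them separate in 1 direction. The matching counts over all genes were not made, so the counts by gene given here are not read as particular to carriers. In Slc25a30, Slc25a39, Slc25a42 and Slc25a44, some probe sets were separate upward and others downward. A level is therefore given per probe set, and levels are not compared between genes.

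Mutant 1 stood apart from the other mutants in many carriers. Among the 23 carrier probe sets lower in mutants by over 0.5, mutant 1 was the highest mutant, and so nearest the controls, in 22. Over all probe sets lower by that much it was the highest in 4218 of 5814. Among the 21 carriers higher by over 0.5, mutant 2 was the highest mutant in 14, against 4072 of 9287. Without mutant 1, limma called 15 carrier probe sets, 4 higher and 11 lower, or 15.6%, and 8.53% of all probe sets. Leaving out any other single array left no carrier called, with 20 to 30 at an unadjusted p under 0.05.

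Slc25a16, in the class of cofactors and nucleotides, is a carrier tied to coenzyme A uptake that is also known as the Graves disease carrier protein. Its probe set 1434996_at read 7.63, 5.62 and 6.06 in mutants and 8.77, 9.23 and 8.80 in controls, each in the order of replicates 1, 2 and 3, which is kept below. Every mutant was below every control, by at least 1.14, and mutant 1 lay highest of the 3. The means were 6.44 ± 1.06 (SD, n = 3) and 8.93 ± 0.26 (SD, n = 3). The level fell by 2.50 (standard error 0.48, adjusted p = 0.0494, limma). The call was lost after quantile normalization (adjusted p = 0.0633) and after centring (0.0596), while the difference ran from -3.10 to -2.09 when each array was left out.

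Slc25a51 carries oxidized NAD into the matrix, where the dehydrogenases that feed the respiratory chain reduce it. Probe set 1454712_at read 8.60, 9.25 and 8.87 in mutants and 7.55, 7.79 and 7.54 in controls. Each mutant exceeded each control by at least 0.81. The signal rose by 1.28 (standard error 0.23, adjusted p = 0.0461, limma), and the call was lost after centring (0.0596). Its brightest probe set, 1433816_at, read 8.81, 9.09 and 9.25 in mutants and 9.07, 9.39 and 8.90 in controls, which overlap. On 1427425_at mutant 1 at 7.80 lay below all controls, which read 8.98, 8.79 and 7.93, while mutants 2 and 3 at 9.25 and 9.49 lay above them. The differences on these probe sets were -0.07 and 0.28 (adjusted p = 0.875 and 0.76, limma), so the rise of Slc25a51 was seen on 1 of its 3 probe sets.

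The rest of this class did not pass the test. Slc25a42, an exchanger of coenzyme A, read 7.996, 8.64 and 8.68 in mutants and 8.89, 8.71 and 9.01 in controls on 1424790_at. The difference was -0.43 (adjusted p = 0.312, limma), with mutants below controls by a gap of 0.03. On 1443637_at it read 7.37, 7.30 and 7.55 in mutants and 6.86, 6.87 and 7.11 in controls, a difference of 0.46 (adjusted p = 0.183, limma) in the opposite direction and again with no overlap. Slc25a36, a pyrimidine nucleotide carrier, had differences of 0.77, 0.31 and 0.46, and Slc25a17, the carrier of the peroxisome, of 0.56 and 0.58. Slc25a33, the other pyrimidine nucleotide carrier, differed by -0.10, and Slc25a26, which brings in S-adenosylmethionine, by -0.06 and -0.07. The folate carrier Slc25a32 had differences of -0.59, 0.38 and -0.49 on dim probe sets.

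Slc25a20 exchanges acylcarnitine for carnitine and so brings long-chain fatty acids to oxidation in the matrix. On 1423108_at it read 10.29, 9.34 and 8.99 in mutants and 10.72, 10.94 and 10.62 in controls, with every mutant below every control. The difference was -1.22 (standard error 0.34, adjusted p = 0.0833, limma). On 1423109_s_at the values were 8.57, 7.32 and 7.41 in mutants and 8.37, 8.58 and 8.75 in controls, where mutant 1 lay within the controls. The difference was -0.80 (adjusted p = 0.198, limma). Neither passed the test with all mice, and both did without mutant 1, at differences of -1.59 and -1.20.

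The enzyme that acts next on the imported acylcarnitine is Cpt2, which returns the acyl group to coenzyme A. Its probe set 1447820_x_at read 6.38, 5.24 and 5.27 in mutants and 7.97, 7.77 and 7.82 in controls. It fell by 2.23 (standard error 0.32, adjusted p = 0.0345, limma), again with mutant 1 nearest the controls. On this probe set mutants 2 and 3 were below the lower quartiles of their arrays, 5.40 and 5.34. The other and brighter probe set of Cpt2, 1416772_at, differed by -1.41 (adjusted p = 0.0638, limma), with the groups apart. Cpt1a, the outer membrane enzyme before the carrier, had differences of -1.01, -0.45 and 0.09 (adjusted p = 0.254 or more, limma). The probe set at -1.01 was below the lower quartile of each array, and the brightest was the one at 0.09.

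**Figure D2:**
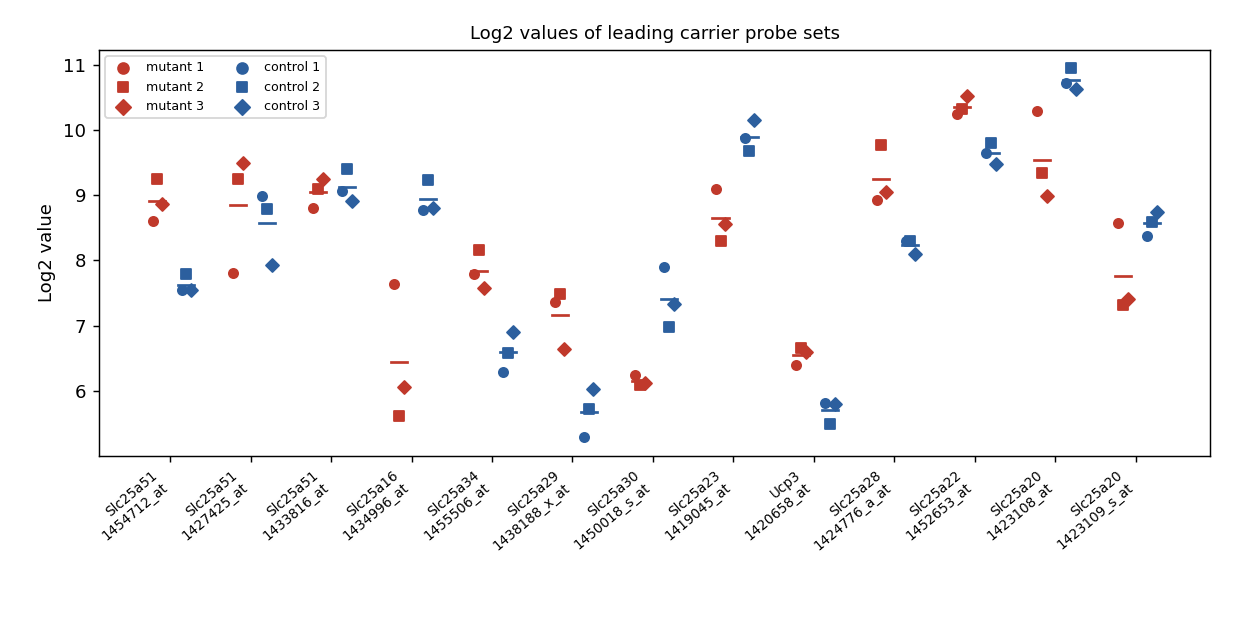
The vertical axis is the log2 value of 13 carrier probe sets in each mouse, mutants in red and controls in blue, being the 10 of smallest p and the others of Slc25a51 and Slc25a20, with a marker shape for each replicate number, which does not pair mice, and a bar at each group mean. For Slc25a16 and Slc25a20 mutant 1 (red circle) is the highest mutant, and of the 3 probe sets of Slc25a51 only 1454712_at has separate groups.

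The adenine nucleotide translocases Slc25a4, Slc25a5 and Slc25a31 exchange the ATP made in the matrix for cytosolic ADP, and Slc25a3 brings in the phosphate. Slc25a5, the form widely expressed in tissues including liver, is read by 8 probe sets, more than any other carrier. All 8 differences were negative, from -1.91 to -0.64 (adjusted p from 0.125 to 0.426, limma), and in all 8 the groups overlapped. On the brightest, 1423772_x_at, the values were 11.38, 10.20 and 9.57 in mutants and 10.79, 11.10 and 11.35 in controls, so that mutant 1 lay above every control and mutants 2 and 3 below. On 1438360_x_at, with the largest difference, mutant 1 at 8.76 stood among controls at 8.66, 8.94 and 9.29, and mutants 2 and 3 read 6.05 and 6.33. On 1438922_x_at the mutants read 8.79, 6.26 and 6.31 and the controls 8.70, 8.94 and 9.34. Mutant 1 was the highest mutant on each of the 8. Without mutant 1 the difference on 1438360_x_at was -2.77, and 4 of the 8 probe sets were called. The smallest differences came without mutant 3 on 6 of the 8, at -0.30 on 1423772_x_at and -0.19 on 1438545_at, and without mutant 2 on the others, at -1.42 on 1438360_x_at. Probe sets of 1 gene read overlapping transcripts and are not independent measurements, and 6 of the 8 carry the suffix of probe sets whose probes may also match other sequences.

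Slc25a4, the form of heart and muscle, read 7.08, 6.78 and 6.69 in mutants and 6.53, 6.10 and 6.12 in controls on 1424562_a_at. This probe set and 1455069_x_at, at 7.15, 6.59 and 6.45 against 6.32, 6.08 and 6.27, were higher in each mutant than in each control, by 0.60 and 0.50 (adjusted p = 0.141 and 0.232, limma). The others, 1434897_a_at and 1424563_at, differed by -0.18 and 0.10 with overlap. On 1434897_a_at the mutants read 6.33, 4.47 and 5.18 and the controls 6.11, 5.62 and 4.79, and on 1424563_at 4.76, 5.46 and 4.25 against 4.94, 4.19 and 5.04. Slc25a31, the form of testis, was below the lower quartile of each array and is not read further.

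Slc25a3 read 12.05, 12.04 and 12.18 in mutants and 11.82, 11.92 and 11.94 in controls on 1416300_a_at. Each mutant lay above each control, but by only 0.11, and the difference of 0.20 did not pass (adjusted p = 0.527, limma). On 1440302_at the mutants read 5.31, 6.48 and 5.45 and the controls 5.41, 5.69 and 6.26, a difference of -0.04. The calcium-regulated ATP-Mg/phosphate carriers set the size of the matrix nucleotide pool. Among them Slc25a23 read 9.09, 8.30 and 8.55 in mutants and 9.87, 9.67 and 10.15 in controls, with every mutant below. The difference was -1.25 (standard error 0.26, adjusted p = 0.0545, limma).

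Slc25a25, of the same type, had only positive differences. On 1424735_at it read 8.71, 9.84 and 9.25 in mutants and 8.85, 7.95 and 9.04 in controls, a difference of 0.65 (adjusted p = 0.325, limma) with overlap. On 1447856_x_at it read 5.63, 5.61 and 6.10 against 5.17, 5.16 and 5.01, a difference of 0.67 (adjusted p = 0.108, limma) without overlap. On 1454284_at the values of 5.20, 6.26 and 5.34 against 5.19, 5.07 and 6.12 overlapped. Slc25a24 had differences of -0.02 and 0.10 and Slc25a41 of 0.39.

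**Figure D3:**
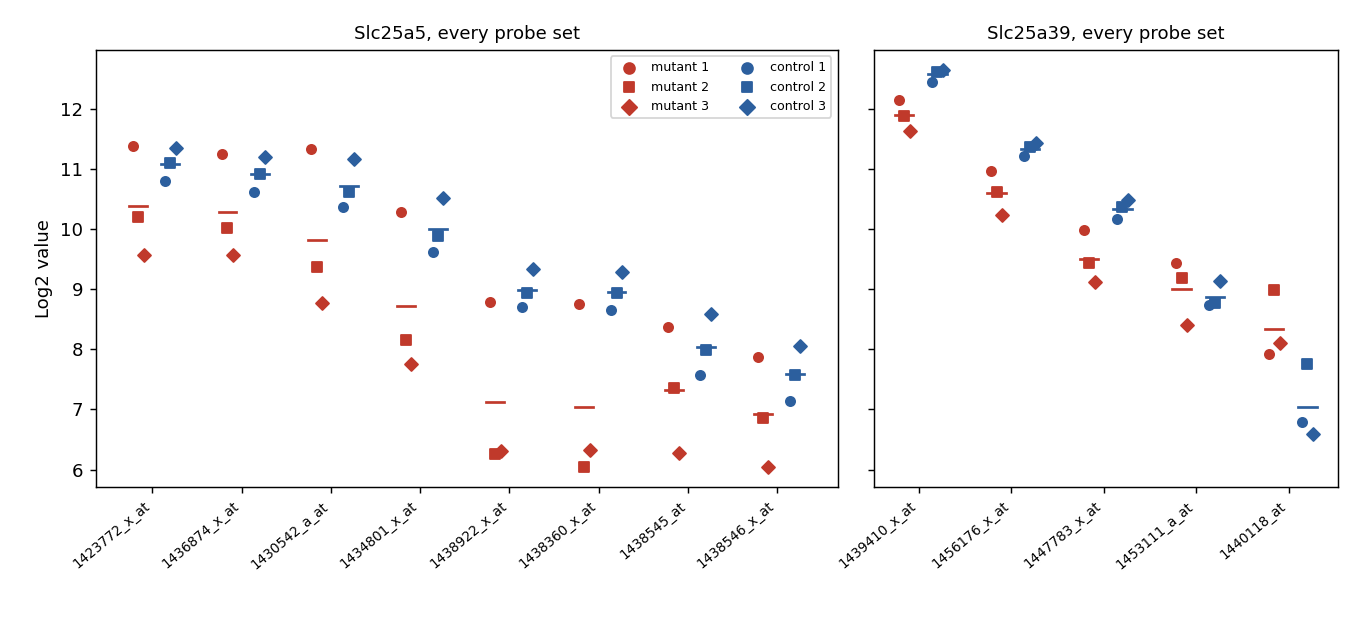
Log2 values are drawn per mouse for the 8 probe sets of Slc25a5 (left) and the 5 of Slc25a39 (right), mutants in red and controls in blue, with bars at group means and marker shapes for replicate numbers, which do not pair mice. For Slc25a5 mutant 1 sits among or above the controls on each probe set while mutants 2 and 3 sit lower. For Slc25a39 the 3 brightest probe sets, all with the suffix _x_at, are lower in every mutant and 1440118_at is higher.

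The carriers of carboxylates had no probe set called and none with separate groups. There was 1 of 8 (12.5%) at an unadjusted p under 0.05, against 25.2% of all probe sets. Slc25a1 exports citrate, the source of cytosolic acetyl-CoA for fatty acid and sterol synthesis. It read 9.69, 7.999 and 8.07 in mutants and 9.08, 9.05 and 9.69 in controls on 1428190_at, a difference of -0.69 (adjusted p = 0.391, limma). Mutant 1 equalled the highest control and the other mutants lay below all controls. Without mutant 1 the difference was -1.24 and the probe set was called, and without mutant 2 it was -0.40.

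Slc25a13, or citrin, is the aspartate-glutamate exchanger of liver and serves the urea cycle and the malate-aspartate shuttle. It read 8.93, 8.08 and 8.21 in mutants and 9.28, 9.32 and 8.81 in controls. The difference was -0.72 (adjusted p = 0.163, limma), and mutant 1 exceeded the lowest control. Slc25a10, the dicarboxylate carrier, read 10.24, 10.40 and 10.07 in mutants and 9.95, 10.51 and 10.33 in controls on 1416954_at. The mutants read 8.13, 7.57 and 7.67 and the controls 7.46, 7.82 and 7.79 on 1416955_at. Its differences of -0.02 and 0.10 (standard error 0.22 and 0.23) were smaller than the spread within the groups. Slc25a11, the oxoglutarate carrier of the same shuttle, differed by -0.16, and Slc25a12, the aspartate-glutamate exchanger of brain and muscle, by -0.53, 0.10 and 0.03.

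Most probe sets of amino acid carriers had positive differences, as did most of all probe sets. Of 14 probe sets 11 (78.6%) had positive differences, against 65.2% of all probe sets, and none was called (6, or 42.9%, at an unadjusted p under 0.05, against 25.2% of all). In 6 (42.9%) every mutant was above every control, against 21.2% of all, and in 1 below. Of the 11 positive, 5 were of Slc25a29 alone, as were 2 of the 6 above. The 1 below was the brightest of Slc25a44. The class median stayed positive under all 14 alternatives, between 0.18 and 0.53. Slc25a15 exchanges ornithine for citrulline and so joins the mitochondrial to the cytosolic part of the urea cycle. On 1420967_at it read 11.25, 11.68 and 11.30 in mutants and 10.92, 10.86 and 10.73 in controls, with a difference of 0.58 (adjusted p = 0.133, limma) and no overlap. On the dimmer 1420966_at the values were 6.28, 5.85 and 5.61 in mutants and 6.24, 6.19 and 6.34 in controls, a difference of -0.34 (adjusted p = 0.389, limma).

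Slc25a22, a glutamate carrier, read 10.24, 10.32 and 10.51 in mutants and 9.64, 9.80 and 9.48 in controls. The spread was small in both groups and the difference was 0.72 (standard error 0.20, adjusted p = 0.0818, limma). Slc25a38, which serves glycine import for heme synthesis, read 8.17, 8.42 and 8.19 in mutants and 7.59, 7.55 and 7.76 in controls, a difference of 0.62 (adjusted p = 0.0994, limma). Slc25a29, a carrier of basic amino acids, had 5 probe sets, all with positive differences, of 1.48 on 1438188_x_at (adjusted p = 0.052, limma) and of 0.23 to 0.51 on the others. On that probe set the mutants read 7.37, 7.48 and 6.64 and the controls 5.29, 5.72 and 6.03. The branched-chain amino acid carrier Slc25a44 was divided, at -0.81 and 0.68 on probe sets with separate groups and at -0.03 on the third. Slc25a18, the other glutamate carrier, differed by 0.35 and Slc25a2, a close relative of Slc25a15, by 0.13.

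Iron and glutathione carriers lay to both sides. Slc25a28 (mitoferrin-2), which imports iron for heme and iron-sulfur clusters, read 8.92, 9.77 and 9.05 in mutants and 8.30, 8.30 and 8.10 in controls. The difference was 1.02 (standard error 0.26, adjusted p = 0.0738, limma), and every mutant was above every control. Slc25a37 (mitoferrin-1), the form best known from red cell precursors, differed by 0.45 with overlap.

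Slc25a39 imports glutathione. On 1439410_x_at it read 12.14, 11.89 and 11.64 in mutants and 12.45, 12.62 and 12.65 in controls. The difference was -0.68 (adjusted p = 0.1, limma), and 1456176_x_at and 1447783_x_at likewise had every mutant below every control, with differences of -0.73 and -0.83 (adjusted p = 0.111 and 0.105, limma). On 1440118_at the values ran the other way, at 7.92, 8.99 and 8.11 in mutants and 6.79, 7.75 and 6.59 in controls, a difference of 1.29 (adjusted p = 0.0982, limma). The fifth probe set, 1453111_a_at, differed by 0.13 with overlap. The 3 lower probe sets all carry the suffix of probe sets whose probes may also match other sequences. The 2 without that suffix had positive differences. Slc25a40, a relative of Slc25a39, differed by 0.08. Of the Slc25a39 probe sets only 1447783_x_at was called without mutant 1, at a difference of -1.06.

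Uncoupling proteins and their relatives had no probe set called by limma among 13. There were 5 (38.5%) at an unadjusted p under 0.05, against 25.2% of all probe sets. Ucp1, the uncoupler of brown fat, read 6.15, 7.17 and 6.36 in mutants and 5.82, 5.70 and 6.79 in controls, a difference of 0.46 with overlap. Ucp3, best known from muscle, differed by 0.85 on 1420658_at (standard error 0.20, adjusted p = 0.0627, limma), at 6.40, 6.66 and 6.59 in mutants and 5.81, 5.50 and 5.80 in controls. Its other probe set differed by -0.16. Markers of brown adipose tissue and muscle had no probe set called among 7 (1 at an unadjusted p under 0.05), with a median difference of 0.15, beside 0.17 for all probe sets. In 3 of the 7 (42.9%) every mutant was above every control, against 21.2% of all, and Adipoq, with the smallest p, differed by 0.59 (adjusted p = 0.152, limma).

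Slc25a30, an uncoupling protein relative of kidney, read 6.24, 6.09 and 6.11 in mutants and 7.89, 6.98 and 7.34 in controls on 1450018_s_at. Here the mutants were tightly grouped below the controls, and the difference was -1.25 (standard error 0.26, adjusted p = 0.0542, limma). Its other 4 probe sets differed by -0.83, 0.38, -0.37 and 0.55, of which -0.83, 0.38 and 0.55 had separate groups. Slc25a27, a relative of brain, differed by 0.73 on 1454230_a_at (adjusted p = 0.0885, limma) and by 0.30, 0.04 and -0.18 on the others, and Slc25a14 by -0.01.

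Among carriers with no class, Slc25a34 had the largest difference. It read 7.79, 8.16 and 7.57 in mutants and 6.29, 6.58 and 6.90 in controls, a difference of 1.25 (standard error 0.25, adjusted p = 0.0509, limma) without overlap. Slc25a47, a carrier found mainly in liver, read 10.52, 10.42 and 11.28 in mutants and 10.87, 10.76 and 10.99 in controls. Its difference of -0.13 (adjusted p = 0.794, limma) was below the spread of the mutants, whose SD was 0.47. Slc25a46, a protein of the outer membrane that takes part in mitochondrial shape, differed by -0.38, with separate groups, and by -0.88 with overlap. Slc25a35, Slc25a45, Slc25a48, Slc25a53 and Slc25a54 had differences between -0.46 and 0.38.

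**Figure D4:**
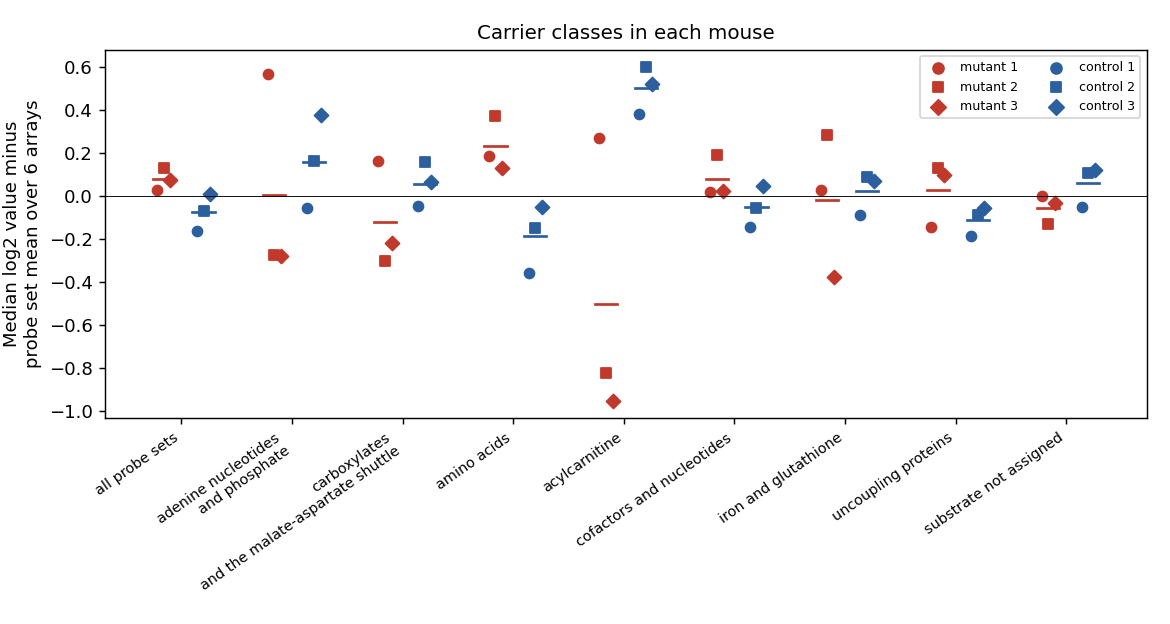
The vertical axis is, for each mouse, the median over the probe sets of a class of the log2 value minus the mean of that probe set over the 6 arrays, with mutants in red, controls in blue, bars at group means and shapes for replicate numbers, which do not pair mice. Amino acid carriers lie between 0.13 and 0.37 in mutants and between -0.36 and -0.05 in controls. For adenine nucleotides and phosphate, where 8 of 22 probe sets are of Slc25a5, mutant 1 is at 0.57 and mutants 2 and 3 are at -0.28.

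Seen by mouse, 2 classes had separate groups below or above on these medians. The amino acid class was at 0.19, 0.37 and 0.13 in mutants and -0.36, -0.15 and -0.05 in controls, and the acylcarnitine carrier at 0.27, -0.83 and -0.96 in mutants and 0.38, 0.60 and 0.52 in controls. For adenine nucleotides and phosphate mutant 1 had the highest of the 6 values, 0.57, and mutants 2 and 3 the lowest, both -0.28. Of the 22 probe sets of this class 8 are of Slc25a5 and not independent, so this is not read as a pattern of the class. The median over all probe sets was 0.03, 0.13 and 0.07 in mutants and -0.16, -0.07 and 0.01 in controls, which were also separate.

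Other transporters of the mitochondrial membranes and the enzymes that work on either side of a carrier were read beside the family. Of 18 transporter genes listed 15 were measured, by 39 probe sets, with a median difference of -0.30, 1 called higher and none lower. In 13 of the 39 (33.3%) every mutant was below every control, against 10.7% of all probe sets, and in 5 (12.8%) above, against 21.2%. Letm1, a cation exchanger regulator of the inner membrane, rose by 1.16 on 1420825_at (standard error 0.21, adjusted p = 0.0467, limma), at 7.15, 7.47 and 7.17 in mutants and 6.32, 6.13 and 5.87 in controls. The call was lost after quantile normalization and centring, and Letm1 was not called higher by its brightest probe set or its average. Its other 3 probe sets differed by -0.94, -0.78 and -0.19, in the opposite direction. The outer membrane protein Tspo had differences of -1.78, -1.47 and -1.55 (adjusted p = 0.053, 0.0587 and 0.0781, limma), with separate groups on all 3. Sfxn1, a serine carrier, differed by -0.99 on 1417560_at (adjusted p = 0.0921, limma) and by -0.05 on 1417559_at.

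Of 22 genes in the list of enzymes, which also holds the amino acid transporter Slc7a2, 20 were measured, by 55 probe sets. The median difference was -0.17, with none called higher and 1 lower, the Cpt2 probe set given above. In 10 of the 55 (18.2%) every mutant was below every control, against 10.7% of all probe sets, and in 4 (7.27%) above, against 21.2%. Fech, which puts iron into heme, differed by -1.73 on 1449181_at (adjusted p = 0.0534, limma) and by 0.54 on 1427696_at, both with separate groups, and by -0.64 and -0.01 on the others. Pank1, which starts coenzyme A synthesis, differed by -1.40 on 1441765_at (adjusted p = 0.0818, limma) and by -1.21, -0.81 and -0.17 on the others, and Cs, the citrate synthase that makes the substrate of Slc25a1, by -1.20, -1.02 and -0.36.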

How the data were processed

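One Affymetrix mouse array was run per liver, for 3 B6.Alb/cre,Pdss2loxP/loxP and 3 B6.Pdss2loxP/loxP animals grouped by their labels. The authors normalized the arrays in dChip and deposited 1 log2 value per probe set and array from its perfect-match model. This scaling can hide or add a shift common to all probe sets. The log2 values were used as deposited. No detection calls came with them, so signal over background is unknown. Precision is limited by the number of arrays. Although the methods name a C. elegans array, the probe sets bear mouse array names. No source used here gives the dChip version.

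Gene symbols came from the platform annotation, in which 34945 probe sets have 1 symbol, 932 several and 9160 none. All 45037 probe sets apart from the 64 controls were compared in limma 3.58.1 (lmFit, then eBayes; R 4.3.3), and p-values were adjusted over all of them by the Benjamini-Hochberg method (threshold 0.05). "Rose" and "fell" are used past that threshold only. Groups are called separate where each mutant lies above, or each lies below, all controls. Single measurements outside the fit were compared by an exact two-sided permutation over the 20 assignments, which cannot give a p below 0.1. Promoters are RefSeq windows, and motifs were counted with Python 3.11.15. Figures were drawn with matplotlib 3.10.9. The fit was tested on simulated data.

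The carriers, their classes, the related genes and the markers were chosen with earlier results of these data known. Values per array are given for carriers called and, whatever they do, for Slc25a1, Slc25a3, Slc25a4, Slc25a5, Slc25a10, Slc25a13, Slc25a15, Slc25a20, Slc25a25, Slc25a42 and Slc25a47, which have a known part in liver. Of related genes and markers, those called are named, with 1 to 4 of smallest p in most lists. Per-array values of Slc25a22, Slc25a23, Slc25a28, Slc25a29, Slc25a30, Slc25a34, Slc25a38, Slc25a39, Ucp1 and Ucp3 lie outside that rule and were added after their values were seen, as was Cpt1a. As alternatives, values were quantile normalized or centred on the array median, the fit was limited to bright probe sets, to the brightest of each gene or to the average over a gene, eBayes was run with its trend and robust settings, replicate number or age entered the model, and each mouse was left out in turn.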

Additional observations from a re-analysis of the deposited data

Results flagged for a closer look

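The spiked bacterial transcripts, which lie outside the comparison of genes, differed between the groups. BioB, BioC and BioD were higher in mutants by 1.81, 1.66 and 1.43 on the log2 scale. They are listed because in each case all 3 mutants lay above all 3 controls. With groups so separate the exact two-sided permutation test always gives p = 0.1, the smallest for 3 mice against 3. That p was fixed by the separation and adds nothing to it. The part of the spiked transcripts in the carrier differences was not tested. With 3 arrays a group, single arrays were not tested as outliers.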

How the results depend on the processing

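With the tests made on all 45037 probe sets, limma called 2 carrier probe sets, 897 of all and 2 of the related genes. Quantile normalization gave 1, 689 and 1, and centring 0, 300 and 1, where 27 carriers had an unadjusted p under 0.05 and the split of all calls went from 561 higher and 336 lower to 150 and 150. Bright probe sets alone gave 9, 3050 and 4, the brightest probe set of each gene 5, 1643 and 1, the average over the probe sets of a gene 3, 502 and 1, trend and robust options 5, 1413 and 4, and age as a covariate 6, 2515 and 4. Leaving out 1 mouse gave 0 to 15, 0 to 3840 and 0 to 14, each highest without mutant 1. Every other omission left no carrier and at most 3 probe sets (without control 1) called, with 20 to 30 carriers at an unadjusted p under 0.05.

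The replicate block, which pairs mice by replicate number, gave 0, 0 and 0 by limma, with 25 carriers and 7935 of all probe sets at an unadjusted p under 0.05. Deviations from the group means correlated at 0.06, -0.50 and -0.56 between mice of the same number. Because the deviations of a group sum to 0, these values cannot show whether mice were paired. The only pair that is named does not share a replicate number. For mutant 3 and control 1, its named concurrent control, the correlation was 0.45, beside 0.62 for mutant 2 and control 3, which no label joins. No paired analysis by concurrent controls was possible because only 1 such pair is named.

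The median of cofactors and nucleotides (0.28) became 0.12 with quantile normalization and with centring, 0.11 in bright probe sets, -0.0857 for the brightest and -0.0265 for the average, and 0.0735 to 0.32 without 1 mouse. That of the uncoupling proteins (0.04) became -0.10, -0.12, 0.30 in bright probe sets, -0.0143 for the brightest and 0.22 for the average, and -0.0457 to 0.14 without 1 mouse. That of iron and glutathione (0.11) became -0.0538 with centring and -0.0085 to 0.31 without 1 mouse. Carriers with no class (-0.13) went to -0.23, -0.29 and -0.26 under quantile normalization, centring and bright probe sets. Amino acids (0.36) went to 0.20 with centring and 0.51 for the brightest, and 0.18 to 0.53 without 1 mouse. Adenine nucleotides and phosphate (-0.03) went to -0.70 in bright probe sets, 0.30 for the brightest and 0.17 for the average, and -0.21 to 0.03 without 1 mouse. The 13 bright probe sets of that class include all 8 of Slc25a5. Bright probe sets took carboxylates to -0.34, which the brightest took to -0.53.

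The 55 carrier probe sets followed singly were those called, those with separate groups and all those of the liver genes named beforehand. Separate groups cannot turn sign when a mouse is left out, so the number that turned does not measure stability. Of the 55, 7 turned sign in some setting, all with small differences and overlapping groups. Slc25a25 1454284_at became -0.0488 with quantile normalization and -0.0227 with centring, and -0.19 to 0.47 without 1 mouse. Slc25a4 1424563_at became -0.0954 and -0.063, and -0.22 to 0.39, and 1434897_a_at ran from -0.69 to 0.25. Slc25a10 1416955_at became -0.065 with centring and ran from -0.0727 to 0.21, and 1416954_at from -0.18 to 0.10. Slc25a3 1440302_at became 0.0072 with age as a covariate and ran from -0.41 to 0.19, and Slc25a47 from -0.405 to 0.0248 without 1 mouse. The cause of these shifts was not tested.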
